A study of Mus musculus with 4 samples.

Results

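The contractile genes of smooth muscle were followed in sarcomas of mice with an inherited p53 mutation. The 10 genes were taken by symbol, namely Acta2, Actg2, Myh11, Cnn1, Tagln, Myocd, Smtn, Des, Lmod1 and Mylk, and all 10 were among the 56691 genes of the deposited table. Bulk RNA-seq had been performed on 4 sarcomas of W/+ mice, which model Li-Fraumeni syndrome, to ask how arsenic trioxide (ATO), a compound that can restore folding of some p53 mutants, acts on tumors in vivo. All 4 mice were heterozygous for one p53 allele on a C57BL/6N background, R279W in mouse numbering, which the sample labels give by its human residue as p53R282W/+. The ATO group (ATO 1 and ATO 2, n = 2) came from mice that drank water with 35 mg ATO per L from day 90 after birth. The control group (Ctl 1 and Ctl 2, n = 2) came from mice without ATO, and the labels name PBS as its treatment.

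The age of each mouse at collection and the kind of each sarcoma are not given in the sources used here. The label field on growth describes cultured cells given dexamethasone and insulin for all 4 samples, although the tissue is labelled as tumor. The total count was 17465090 and 17971675 in Ctl 1 and Ctl 2 and 18134000 and 15259695 in ATO 1 and ATO 2. ATO 2 stood apart in composition, since mitochondrial genes took 14.7% of its counts against 1.98% in Ctl 1, 1.99% in Ctl 2 and 2.59% in ATO 1.

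Smooth muscle contracts when calcium-calmodulin activates myosin light chain kinase (Mylk), which phosphorylates the light chain of smooth muscle myosin (heavy chain Myh11) so that it pulls on filaments of the actins Acta2 and Actg2. Calponin (Cnn1), transgelin (Tagln), smoothelin (Smtn) and leiomodin (Lmod1) bind these filaments, and desmin (Des) links the contractile units as an intermediate filament. The genes are driven by serum response factor, which binds CArG boxes with its coactivators myocardin (Myocd) or the MRTF proteins, and Acta2 and Tagln are also switched on in myofibroblasts and in some mesenchymal tumors. Des, by contrast, is abundant in skeletal and cardiac muscle as well.

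The 10 genes did not move as one group. Acta2, Actg2, Cnn1 and Tagln were high in Ctl 1 and ATO 2 and lowest in ATO 1, so that their ATO and Ctl values overlapped. Myh11 and Lmod1 were highest in ATO 2. Smtn was lower, and Des higher, in both ATO sarcomas than in both Ctl sarcomas. Myocd was near the limit of detection in all 4 sarcomas.

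**Figure D1:**
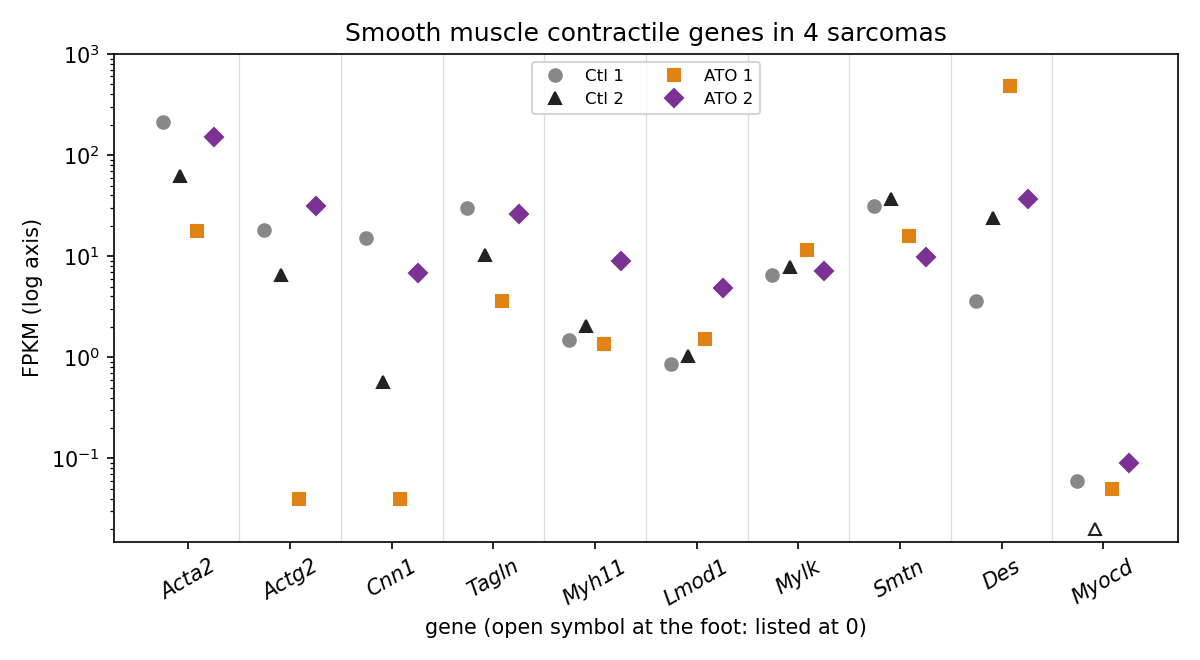
FPKM of the 10 genes in each of the 4 sarcomas on a log axis, with 1 symbol per sarcoma and an open symbol at the foot for a value listed at 0. Acta2, Actg2, Cnn1 and Tagln all have ATO 1 lowest, whereas Des is highest in ATO 1 at 485.67.

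Acta2, the actin of vascular smooth muscle and of myofibroblasts, reached 210.41 and 62.51 FPKM in Ctl 1 and Ctl 2 and 17.7 and 151.42 in ATO 1 and ATO 2, where FPKM is the count divided by exonic length and by the total count. Ctl 1 and ATO 2 were thus the high sarcomas, 1 from each group, and the groups overlapped. The group means were 136 ± 105 FPKM in Ctl and 84.6 ± 94.6 in ATO (SD, n = 2 each). Between the ATO sarcomas, Acta2 was 10.5 times as high in ATO 2 as in ATO 1 (95% interval 9.70 to 11.4). This interval and those below compare 2 libraries by CPM (the count relative to a library size scaled with its TMM factor), are exact for counting error, and leave out variation between animals. The log2 fold change of ATO over Ctl was −0.30 with an SE of 1.23 (edgeR adjusted p = 0.961). In bulk tissue, fewer cells of a type and less RNA per cell cannot be told apart, which holds for every level given here.

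Actg2, the actin of visceral smooth muscle, was at 18.02 and 6.5 FPKM in Ctl 1 and Ctl 2 and 0.04 and 31.06 in ATO 1 and ATO 2. A single count was recorded in ATO 1 against 738 in ATO 2, a ratio of 1076 with a 95% interval of 193 to 42576. The groups overlapped, and the spread between the ATO sarcomas exceeded that between the groups. The fold change was 0.76 on the log2 scale, with an SE of 2.16 and an edgeR adjusted p of 0.942, and it turned to −8.15 without ATO 2.

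Cnn1, an actin-binding protein used as a marker of differentiated smooth muscle, was at 15.05 and 0.57 FPKM in Ctl 1 and Ctl 2 and 0.04 and 6.8 in ATO 1 and ATO 2. It separated the Ctl sarcomas as well as the ATO sarcomas. Ctl 1 was 26.8 times as high as Ctl 2 (95% interval 18.4 to 40.6), and ATO 2 was 207 times as high as ATO 1 (56.8 to 1719), where 2 counts were recorded. On the log2 scale, ATO over Ctl was −0.78 with an SE of 2.26, −7.40 without ATO 2 and 3.01 without Ctl 1.

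Tagln, an actin cross-linker also called SM22, was at 30.1 and 10.27 FPKM in Ctl 1 and Ctl 2 and 3.58 and 26.37 in ATO 1 and ATO 2. By FPKM the sarcomas had the order seen for Acta2, with the groups overlapping, whereas by CPM ATO 2 (64.1) was above Ctl 1 (55.0). The ratio of ATO 2 to ATO 1 was 9.05 (95% interval 7.50 to 10.98), and the log2 fold change was −0.05 with an SE of 1.14. The antisense gene Gm48529 covers 62.4% of the exon bases of Tagln and Pcsk7 another 5.43%, on the opposite strand. Gm48529 itself held 71 and 90 counts in Ctl 1 and Ctl 2 and 53 and 42 in ATO 1 and ATO 2. Whether the counting used strand is not given in the sources used here, so the level of Tagln is uncertain.

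Leaving out ATO 2 took the fold changes of Acta2 and Tagln to −2.82 and −2.37. Without ATO 1 they were 0.55 and 0.78, and without Ctl 1 they were 0.84 and 0.94. Single sarcomas therefore set the sign for these genes. Together, Acta2, Actg2, Cnn1 and Tagln summed to 274 and 79.8 FPKM in Ctl 1 and Ctl 2 and 21.4 and 216 in ATO 1 and ATO 2.

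The genes most like Acta2 across the 4 sarcomas were sought among 10877 genes with a mean of at least 10 CPM, by the root mean square distance of centred log2(CPM + 1). Outside the 10 genes, the nearest were Lhfpl2 at a distance of 0.135, Nfasc at 0.22, Ptges at 0.27, Gpm6b at 0.28 and Prkd1 at 0.33. Tagln lay at 0.22. Lhfpl2, for example, was at 194 and 60.1 CPM in Ctl 1 and Ctl 2 and 18.8 and 159 in ATO 1 and ATO 2. Cnn1 and Actg2 were farther away, at 0.88 and 0.89.

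Acta2 and Cnn1 are those of the 4 genes lowest in ATO 1 and high in Ctl 1 and ATO 2 whose promoters are held in the RefSeq table used (GRCm38.p6, 250 bases before the start to 50 after it), and both are shown for that reason. The Acta2 promoter is chr19:34255324-34255623 on the minus strand, and that of Cnn1 is chr9:22099003-22099302 on the plus strand. Capitals mark CATTCC or its reverse complement and CArG boxes with 1 mismatch, and the Cnn1 window holds none of them.
Acta2: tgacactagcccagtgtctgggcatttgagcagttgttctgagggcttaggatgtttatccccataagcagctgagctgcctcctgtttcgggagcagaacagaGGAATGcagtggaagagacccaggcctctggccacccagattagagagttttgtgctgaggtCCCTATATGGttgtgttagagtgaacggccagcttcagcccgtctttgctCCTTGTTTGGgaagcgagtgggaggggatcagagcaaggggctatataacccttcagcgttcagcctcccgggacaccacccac
Cnn1: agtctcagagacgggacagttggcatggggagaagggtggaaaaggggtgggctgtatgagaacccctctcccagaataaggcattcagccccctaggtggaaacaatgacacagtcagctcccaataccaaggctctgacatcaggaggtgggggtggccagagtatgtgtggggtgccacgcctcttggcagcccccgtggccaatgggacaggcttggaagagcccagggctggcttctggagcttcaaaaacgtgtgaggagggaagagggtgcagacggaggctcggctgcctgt
No CArG box (CC, 6 bases of A or T, GG) was present in the 6 of 10 promoters that the table holds, those of Des, Lmod1, Cnn1, Smtn, Mylk and Acta2, against 1.63% of all 32851 promoters. A search that allowed 1 mismatch in the A/T core, chosen after the first result was seen, matched Acta2 alone among the 6, at CCCTATATGG and CCTTGTTTGG. Their first bases lie at −84 and −34 from the RefSeq start, and 8.50% of all promoters held such a match. CATTCC, searched on both strands, was found in 4 of 6 (Lmod1, Smtn, Mylk and Acta2) against 14.7% of all promoters, and no match overlapped another motif. The windows of Smtn and Mylk begin at starts 1320 and 39740 bases from the start of the GENCODE M21 gene, so they lie inside the annotated gene. The RefSeq start of Acta2 is likewise 217 bases inside the M21 gene, whose span holds both of the matches with 1 mismatch.

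The share of each isoform within its family differed between the sarcomas. Of the summed FPKM of the muscle actins Acta2, Actg2, Acta1 and Actc1, Acta2 made up 91.7% and 53.6% in Ctl 1 and Ctl 2 and 0.450% and 24.8% in ATO 1 and ATO 2. Acta1, the skeletal muscle actin, took 0.340%, 39.9%, 99.2% and 70.0% in the same order. In ATO 1 it stood at 3898.39 FPKM beside 17.7 for Acta2, and how the counting treated reads that align to several genes is not given. The spliced transcripts of the 4 actins shared no stretch of 75 bases, yet their coding sequences are close, as their last 60 coding bases show, with bases that differ from Acta2 in capitals. They are read from GRCm38 on the minus strand, from chr19:34241667-34241726 (Acta2), chr6:83512985-83513044 (Actg2), chr8:123892009-123892068 (Acta1) and chr2:114047466-114047525 (Actc1).
Acta2: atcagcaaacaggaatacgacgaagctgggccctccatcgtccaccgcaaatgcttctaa
Actg2: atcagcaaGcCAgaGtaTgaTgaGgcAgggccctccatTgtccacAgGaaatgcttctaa
Acta1: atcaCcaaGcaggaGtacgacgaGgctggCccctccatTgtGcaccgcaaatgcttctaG
Actc1: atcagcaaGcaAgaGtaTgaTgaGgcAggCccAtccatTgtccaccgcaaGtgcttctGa
Of these 60 bases, 11 differed in Actg2, 8 in Acta1 and 12 in Actc1. The low Acta2 value of ATO 1 is uncertain by whatever reads of Acta1 were counted for it, which would raise and not lower it.

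**Figure D2:**
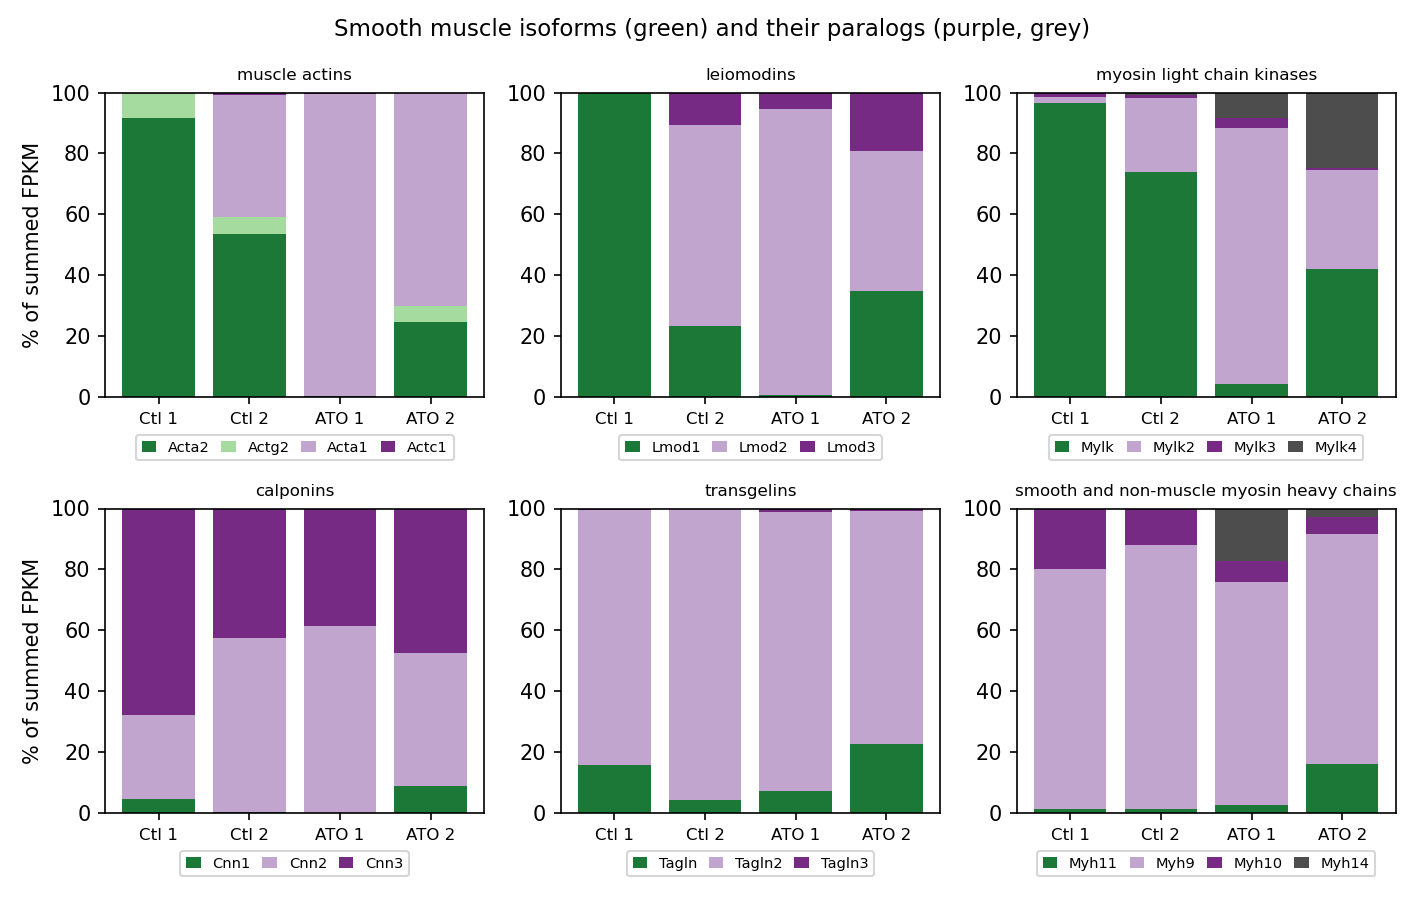
Share of the summed FPKM of each gene family in each of the 4 sarcomas, as stacked bars from 0 to 100%, with smooth muscle isoforms in green and their paralogs in purple and grey. Skeletal muscle isoforms take most of the actin, leiomodin and kinase families in ATO 1, with Acta1 at 99.2% of the muscle actins.

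Myh11, the heavy chain of smooth muscle myosin, was at 1.49 and 2.02 FPKM in Ctl 1 and Ctl 2 and 1.34 and 8.99 in ATO 1 and ATO 2. ATO 2 stood alone, since the other values lay close together and the lowest came from the same group. In CPM, ATO 2 was 8.26 times as high as ATO 1 (95% interval 7.06 to 9.72), whereas ATO 1 and Ctl 1 could not be told apart by counting error (ratio 0.971, 0.790 to 1.19). The log2 fold change was 1.94 with an SE of 1.04 (edgeR adjusted p = 0.653) and −0.26 without ATO 2. Myh11 made up 16.3% of the FPKM of the smooth and non-muscle heavy chains in ATO 2 and at most 2.73% in the other sarcomas, and Myh9 led in all 4, with 75.4% in ATO 2.

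Myh11 was low beside Acta2 throughout. The ratio of Acta2 to Myh11, both per length, was 141 and 30.9 in Ctl 1 and Ctl 2 and 13.2 and 16.8 in ATO 1 and ATO 2. The genes outside the 10 that lay nearest to Myh11 by the same distance were Sowahc at 0.07, mt-Co3 and Dnajc15 at 0.09 and 0.10, Pdp2 at 0.10 and Rtn4ip1 at 0.15, while Lmod1 lay at 0.43 and Acta2 at 1.30. The mitochondrial share of counts, at 14.7% in ATO 2 and at most 2.59% elsewhere, was high in the same sarcoma.

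Lmod1, which nucleates actin filaments in smooth muscle, was at 0.86 and 1.04 FPKM in Ctl 1 and Ctl 2 and 1.51 and 4.83 in ATO 1 and ATO 2. Its ATO values were all above its Ctl values, on the FPKM and the CPM scale. ATO 1 exceeded Ctl 2 by a ratio of 1.59 (95% interval 1.17 to 2.17) and ATO 2 by 6.25 (4.83 to 8.19). The log2 fold change was 2.09 with an SE of 0.85 (edgeR adjusted p = 0.592), and 0.80 without ATO 2. Its striated muscle paralogs Lmod2 and Lmod3 had no count in Ctl 1, and Lmod2 reached 226.47 FPKM in ATO 1. Lmod1 made up 100% of leiomodin FPKM in Ctl 1 and 0.626% in ATO 1.

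Mylk, the kinase that starts contraction, varied least. It was at 6.54 and 7.87 FPKM in Ctl 1 and Ctl 2 and 11.52 and 7.1 in ATO 1 and ATO 2. By FPKM the groups overlapped, since ATO 2 lay below Ctl 2, but by CPM both ATO sarcomas were above (67.6 and 80.3 in Ctl 1 and Ctl 2, 129 and 97.8 in ATO 1 and ATO 2). The TMM factors behind this difference of scale were 1.09, 1.11, 1.01 and 0.822 for Ctl 1, Ctl 2, ATO 1 and ATO 2. Its log2 fold change was 0.62 with an SE of 0.38 (edgeR adjusted p = 0.688). The skeletal muscle kinase Mylk2 took 83.9% of the FPKM of the 4 kinases in ATO 1, where Mylk held 4.37%.

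Smtn, a cytoskeletal protein of contractile smooth muscle, was at 31.65 and 36.93 FPKM in Ctl 1 and Ctl 2 and 15.96 and 9.84 in ATO 1 and ATO 2. Both ATO sarcomas were below both Ctl sarcomas, and the group means were 34.3 ± 3.73 FPKM in Ctl and 12.9 ± 4.33 in ATO (SD, n = 2 each). The gap between the groups exceeded the spread within them. ATO 1 was at 0.547 of the CPM of Ctl 1 (95% interval 0.511 to 0.586) and ATO 2 at 0.414 (0.379 to 0.452). The log2 fold change was −1.16 with an SE of 0.38 and did not pass edgeR's test after adjustment (adjusted p = 0.570). It stayed between −1.39 and −0.97 when single sarcomas were left out. Gm11946 overlaps 16.3% of the Smtn exon bases on the opposite strand and held at most 48 counts.

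Des was at 3.6 and 23.76 FPKM in Ctl 1 and Ctl 2 and 485.67 and 36.78 in ATO 1 and ATO 2. It was higher in both ATO sarcomas than in both Ctl sarcomas, with ATO 1 far above the rest. ATO 2 exceeded Ctl 2 by a ratio of 2.09 (95% interval 1.96 to 2.23), and ATO 1 exceeded it by 22.5 (21.4 to 23.7). The log2 fold change was 4.41 with an SE of 1.61 (edgeR adjusted p = 0.577), and 1.85 without ATO 1. DESeq2 called Des at an adjusted p of 0.0129 and edgeR without a filter on low counts at 0.0398, within a range from 0.0129 to 0.872 over all alternatives.

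Skeletal muscle markers followed the same order as Des. All 19 of 19 were higher in both ATO sarcomas than in both Ctl sarcomas, against 19.7% of all genes by CPM and 12.8% by FPKM. Of the 19, 8 had at most 3 counts in Ctl 1. Ckm, Myl1 and Mylk2 had 5, 7 and 7 there. These and the 8 passed the filter on low counts only with an ATO sarcoma. The 19 of 19 is thus a description and no support, and no test counts are given for the 19 markers. Their summed level was 43.7 and 424 CPM in Ctl 1 and Ctl 2 and 51978 and 3746 in ATO 1 and ATO 2. Myh4 had the largest mean CPM over the 4 sarcomas, though 6 others, Ttn the highest, were above it in Ctl 1 and Acta1 in ATO 2, and by FPKM Acta1 was above it in all 4. Myh4 was at 0.14 and 16.76 FPKM in Ctl 1 and Ctl 2 and 3029.21 and 90.52 in ATO 1 and ATO 2. In Ctl 1, 3 of the 19 had no count, namely Tnnc2, Lmod2 and Lmod3. Of 8 cardiac markers 5 were tested, all with a log2 fold change above 0, while 49.2% of all genes tested were above 0. None met an unadjusted edgeR p under 0.05. Actc1, Myl2 and Ryr2 passed the filter on low counts only with an ATO sarcoma, so their signs are no support. The cardiac markers summed to at most 58.5 CPM in any sarcoma. Myl2 had their largest mean CPM and was highest of them in ATO 2 alone. Des made up 74.1% of the summed FPKM of Des, Vim and Synm in ATO 1 against 0.614% in Ctl 1, where Vim led. The part of skeletal muscle RNA in the Des difference was not tested. Without Des, the other genes summed to 314 and 128 FPKM in Ctl 1 and Ctl 2 and 51.7 and 246 in ATO 1 and ATO 2.

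Myocd, the coactivator that drives the smooth muscle program, had 7 and 0 counts in Ctl 1 and Ctl 2 and 6 and 9 in ATO 1 and ATO 2. This is at most 0.09 FPKM, and a count of 0 allows up to 0.167 CPM in Ctl 2 (3 counts of the total, for counting error only). It did not pass the filter on low counts, so it was not tested. Between ATO 2 and ATO 1 no difference was detectable at this depth, with a ratio of 2.19 and an interval of 0.696 to 7.47. Against the 0 counts of Ctl 2, the lower 95% bound of the ratio was 3.14 for ATO 2, 1.505 for Ctl 1 and 1.28 for ATO 1.

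Levels per length ordered the genes differently in each sarcoma. In Ctl 1 the order was Acta2, Smtn, Tagln, Actg2, Cnn1, Mylk, Des, Myh11, Lmod1 and Myocd, in which Smtn and Tagln lay close together at 31.65 and 30.1 FPKM. In Ctl 2, Acta2 and Smtn were followed by Des, Tagln, Mylk, Actg2, Myh11, Lmod1, Cnn1 and Myocd. In ATO 1, Des came first, then Acta2, Smtn, Mylk, Tagln, Lmod1 and Myh11, with Myocd, Actg2 and Cnn1 at 0.05 FPKM or below. In ATO 2 the order was Acta2, Des, Actg2, Tagln, Smtn, Myh11, Mylk, Cnn1, Lmod1 and Myocd. By group means in Ctl, Acta2, Smtn and Tagln came first, then Des, Actg2, Cnn1, Mylk, Myh11, Lmod1 and Myocd. The values of neighbours from Tagln to Mylk overlapped in this order, whereas Acta2 and Smtn, Smtn and Tagln, and those from Mylk down did not. In ATO the means ran from Des through Acta2, Actg2, Tagln, Smtn, Mylk, Myh11 and Cnn1 to Lmod1 and Myocd, and every pair of neighbours overlapped except Lmod1 and Myocd.

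In the edgeR test of ATO against Ctl, 0 of the 9 genes tested passed an adjusted p of 0.05, and 0 of 17188 genes tested (0%) did so, the smallest adjusted p being 0.570. At an unadjusted p under 0.05, 1 of 9 was higher (Des, against 5.44% of all genes tested) and 1 of 9 was lower (Smtn, against 3.07%). That threshold was met by 1463 genes in all. With single sarcomas left out, Smtn missed it each time and Des met it only without ATO 2. Other genes of the 10 met it in such fits. They were Myh11 and Lmod1 without ATO 1 (log2 fold changes of 2.76 and 2.75) and Actg2 without ATO 2 (−8.15). DESeq2 called 716 genes (4.17% of 17188), and edgeR without the filter called 541 (1.75% of 30859), with Des the only one of the 10 in each. By CPM, 3 of 9 (Des, Lmod1 and Mylk) had both ATO sarcomas above both Ctl sarcomas, against 19.7% of all genes, and 1 of 9 (Smtn) had both below, against 20.2%. By FPKM the counts were 2 above (Des and Lmod1) and 1 below (Smtn), against 12.8% and 29.6%. An exact two-sided permutation test of 2 against 2 sarcomas cannot give a p below 0.3333. The edgeR p-values measure differences against the spread within the groups, moderated toward that of other genes, and cover these 4 sarcomas only.

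Among the 9 genes tested, 5 were higher and 4 lower by the sign of the log2 fold change, as in the lists below. The median was 0.62 against −0.02 over all genes tested. The median is the value of Mylk. Taken pair by pair, the median had opposite signs in the ATO sarcomas, as the median log2 ratio of CPM, with 1 added, was −0.86 for ATO 1 over Ctl 1 and −1.06 over Ctl 2, and 0.52 for ATO 2 over Ctl 1 and 1.74 over Ctl 2. Without ATO 2 the median fold change of the 9 was −0.97.

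**Figure D3:**
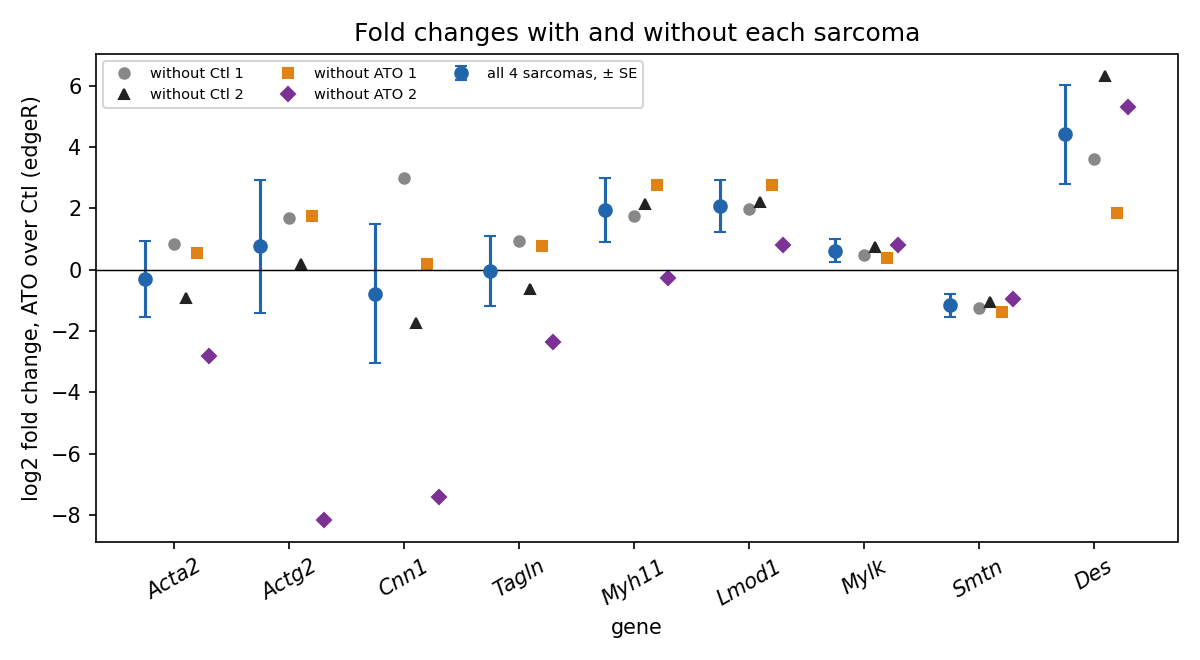
Log2 fold change of ATO over Ctl from edgeR for the 9 genes tested, with its SE from all 4 sarcomas (circles with bars) and the value with each sarcoma left out (other symbols). Smtn stays between −1.39 and −0.97, whereas Actg2 moves between −8.15 and 1.74.

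Other contractile and cytoskeletal genes of smooth muscle were split as well. Of 27 listed and tested, 12 were higher and 15 lower, with a median log2 fold change of −0.59, and 0 passed the adjusted p. At an unadjusted p under 0.05, 4 were higher (Tpm2, Synpo2, Synm and Hspb6, against 5.44% of all genes) and 4 were lower (Cald1, Actn1, Pdlim7 and Csrp1, against 3.07%). By CPM, 7 of 27 had both ATO sarcomas above both Ctl sarcomas and 12 of 27 had both below, against 19.7% and 20.2%. With single sarcomas left out, the genes named here kept their direction, but some of them missed that p each time. The log2 fold change of Tpm2 ran from 1.47 without ATO 1 to 3.18 without ATO 2. That of Csrp1 ran from −1.42 without ATO 1 to −2.07 without ATO 2. The 4 higher genes named had their largest value in ATO 1, where skeletal muscle markers were also highest. Synm, an intermediate filament protein that partners desmin, was at 1.18 and 2 FPKM in Ctl 1 and Ctl 2 and 39.32 and 4.92 in ATO 1 and ATO 2. Hspb6, a small heat shock protein of muscle, was at 5.28, 5.93, 98.63 and 29.3 FPKM in the same order, and Tpm2 and Synpo2 also lay above both Ctl sarcomas in each ATO sarcoma. DESeq2 called these 4 and Pdlim3 (against 4.17% of all genes), and edgeR without a filter called the same but Tpm2 (against 1.75%). Pdlim3 had 1 count in Ctl 1 and passed the filter on low counts only with the ATO sarcomas, so its calls are no support.

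The 4 lower genes named resembled Smtn in being below the Ctl range in both ATO sarcomas. Cald1, caldesmon of smooth and non-muscle cells, was at 63.99 and 53.71 FPKM in Ctl 1 and Ctl 2 and 16.35 and 16.56 in ATO 1 and ATO 2, and its log2 fold change was −1.56 with an SE of 0.50. Csrp1, a LIM protein of smooth muscle, was at 176.02, 144.97, 34.96 and 45.43 FPKM. Actn1 and Pdlim7 had log2 fold changes of −1.25 and −1.41. Flna, an actin cross-linker, and Tpm1, a tropomyosin, had nearly the same mean CPM, the largest of the 27, with Tpm1 the higher in Ctl 1 and ATO 1. Flna was at 119.85, 163.42, 95.21 and 62.49 FPKM, and Tpm1 at 182.29, 71.97, 337.78 and 46.54.

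The paralogs Cnn2, Cnn3 and Tagln2, which are not restricted to smooth muscle, were above Cnn1 and Tagln in every sarcoma. Of calponin FPKM, Cnn1 made up 4.74% and 0.388% in Ctl 1 and Ctl 2 and 0.0525% and 8.74% in ATO 1 and ATO 2. Tagln made up 15.8%, 4.23%, 7.16% and 22.5% of the transgelins. Of 7 non-muscle actin and myosin genes, 2 were higher and 5 lower, with Actb the most abundant at 1038.73 and 1280.79 FPKM in Ctl 1 and Ctl 2 and 524.11 and 761.19 in ATO 1 and ATO 2. Myh10 was at 24.23, 18.57, 3.46 and 3.08 FPKM (log2 fold change −2.44, SE 0.41, edgeR adjusted p = 0.570), and Myh14 was at 0, 0.21, 8.45 and 1.51 FPKM. DESeq2 and edgeR without a filter called Myh10. Myh14 had 0 counts in Ctl 1 and passed the filter on low counts only with the ATO sarcomas, so its tests are not given.

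Regulators of the smooth muscle program did not pass the test. Of 15 listed, 13 were tested, and 0 passed the adjusted p. The log2 fold change was above 0 for 1 (Rock1) and below 0 for 12, with a median of −0.40, while 49.2% of all genes tested were above 0. By CPM, 5 of 13 had both ATO sarcomas below both Ctl sarcomas, against 20.2% of all genes. Srf, the factor that binds CArG boxes, was at 22.64 and 18.43 FPKM in Ctl 1 and Ctl 2 and 16.37 and 13.18 in ATO 1 and ATO 2, with a log2 fold change of −0.21. Its coactivators Mrtfa and Mrtfb had log2 fold changes of −0.72 and −0.53. Gata6 and Foxf1, transcription factors of mesoderm-derived smooth muscle, were lower at an unadjusted p under 0.05, with log2 fold changes of −3.18 and −3.80. Gata6 ran from −2.26 without Ctl 1, at an unadjusted p of 0.169, to −5.10 without ATO 2, and Foxf1 from −3.03 without ATO 1 to −5.56 without ATO 2. Foxf1 was at 17.26 and 23.34 FPKM in Ctl 1 and Ctl 2 and 0.39 and 1.87 in ATO 1 and ATO 2, and Gata6 was at 3.77, 1.38, 0.07 and 0.37. DESeq2 and edgeR without a filter called Foxf1 and not Gata6. Nkx2-3 and Tcf21 had no count in any sarcoma. Rhoa, the most abundant of the regulators by CPM, was at 56.3, 72.14, 33.74 and 48.75 FPKM, and its groups overlapped by CPM.

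Of 11 genes for calcium entry and relaxation, 10 were tested, 6 were higher and 4 lower, and 0 passed the adjusted p. The endothelin receptor gene Ednra was lower at an unadjusted p under 0.05, at 10.77 and 14.47 FPKM in Ctl 1 and Ctl 2 and 4.41 and 4.82 in ATO 1 and ATO 2. Kcnma1, a calcium-activated potassium channel, was higher at 0.28, 0.14, 1.34 and 0.36 FPKM. With single sarcomas left out, Ednra missed that p each time and Kcnma1 met it only without ATO 2. Itpr1, with the largest mean CPM but below Cacna1c in Ctl 1, was at 2.05, 5.17, 5.4 and 4.87 FPKM. Of 7 TGF-beta ligands and receptors, whose signal induces Acta2 in fibroblasts, 2 were higher and 5 lower, none at an unadjusted p under 0.05, and Tgfbr2, with the largest mean CPM but below Tgfbr3 in ATO 1, was at 48.95, 67.1, 27.66 and 36.14 FPKM.

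Markers of other cells that express these genes were set beside them. Of 15 fibroblast and myofibroblast markers, 6 were higher and 9 lower, with summed levels of 35545 and 7261 CPM in Ctl 1 and Ctl 2 and 19718 and 12000 in ATO 1 and ATO 2. Col1a1 had the largest mean CPM, though Fn1 and Col3a1 were above it in Ctl 2 and Col3a1 in ATO 2. Col1a1 was at 2276.42 and 273.32 FPKM in Ctl 1 and Ctl 2 and 2413.42 and 315.1 in ATO 1 and ATO 2. Postn, a matrix protein of myofibroblasts, was at 383.27 and 83.36 FPKM in Ctl 1 and Ctl 2 and 26.22 and 70.1 in ATO 1 and ATO 2. By FPKM, 3 of the 15 (Lrrc15, Col3a1 and S100a4) had the order of Acta2 and the other 12 did not. Lrrc15 was at 87.32, 1.58, 0.31 and 20.96 FPKM, and Postn and these 3 were chosen for naming after their values were seen. Pericyte markers (9 listed, 2 higher and 7 lower, none at an unadjusted edgeR p under 0.05) had their largest sum in Ctl 2. The sums were 1062, 2743, 768 and 1121 CPM in the same order, though Pdgfrb was highest in Ctl 1 and Anpep in ATO 2. Rgs5 had the largest mean CPM, carried by Ctl 2, while by CPM Pdgfrb and Mcam were above it in Ctl 1 and Pdgfrb, Abcc9 and Notch3 in ATO 1. None of the 9 pericyte or 15 fibroblast markers was without counts in any sarcoma, and their part in the Acta2 group was not tested.

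The remaining marker lists differed between sarcomas, and none of their genes had the FPKM order of Acta2. The gene named for each list is that of the largest mean CPM, which need not be the highest in each sarcoma. Endothelial markers (7) summed to 650 and 5310 CPM in Ctl 1 and Ctl 2 and 548 and 1297 in ATO 1 and ATO 2, with Pecam1 named. All 7 had a log2 fold change below 0, whereas 49.2% of all genes tested were above 0. None of the 7 met an unadjusted edgeR p under 0.05, and the groups overlapped for each. Osteoblast markers (6) reached 1201 CPM in ATO 1 and at most 89.4 elsewhere, with Ibsp named, which was the highest in ATO 1 only. ATO 2 had the lowest sum, at 28.7 CPM. All 6 had a log2 fold change above 0, but only 2 (Ibsp and Alpl) had both ATO sarcomas above both Ctl sarcomas by CPM. An unadjusted edgeR p under 0.05 was met by 2 of the 6 (Ibsp and Alpl), against 5.44% of all genes. It was not met when Ctl 1, Ctl 2 or ATO 1 was left out. Their log2 fold changes of 8.91 and 4.76 were 0.21 and 1.71 without ATO 1, and 9.92 and 5.67 without ATO 2. DESeq2 called both, and also Bglap, against 4.17% of all genes. Bglap had 10 and 1 counts in Ctl 1 and Ctl 2 and 655 and 1 in ATO 1 and ATO 2. It and Sp7 (0, 24, 2497 and 0 counts in the same order) passed the filter on low counts only with ATO 1, so they are no support. Adipocyte markers (5) reached 5992 CPM in ATO 2 and 834 in ATO 1, against 52.2 in Ctl 1 and 269 in Ctl 2, with Fabp4 the highest in all 4, and Lep had no count in either Ctl sarcoma. Adipoq, Plin1, Lep and Cidec had at most 2 counts in a Ctl sarcoma and at least 377 in an ATO sarcoma. They passed the filter on low counts through the ATO sarcomas alone, so their tests are not given. Erythroid markers (4) summed to 213, 13935, 8399 and 1056 CPM in the order Ctl 1, Ctl 2, ATO 1 and ATO 2, with Hbb-bs the highest in all 4. Their log2 fold changes were below 0, none at an unadjusted edgeR p under 0.05, and the groups overlapped for each marker. Leukocyte markers (6, of which 3 had a log2 fold change above 0, none at that p) summed to 415, 609, 379 and 1031 CPM, with Cd68 named. Epithelial markers (4) summed to at most 45.0 CPM, with Krt8 named. All 4 had a log2 fold change above 0, none at an unadjusted edgeR p under 0.05. Krt8 and Krt18, at 0 and 6 counts in Ctl 1, passed the filter on low counts only with an ATO sarcoma, so their signs are no support. Only Krt18 had both ATO sarcomas above both Ctl sarcomas.

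Acta2 lies on chromosome 19 (chr19:34241090-34255590, minus strand, GRCm38) beside Fas, with 35075 bases between them and Fas on the opposite strand. Fas, a death receptor, did not follow Acta2, at 3.3 and 4.43 FPKM in Ctl 1 and Ctl 2 and 9.47 and 13.73 in ATO 1 and ATO 2. Both ATO sarcomas were above both Ctl sarcomas, and the log2 fold change was 1.89 with an SE of 0.53 (edgeR adjusted p = 0.570). The other genes are spread over the genome. Tagln (chr9:45929619-45936058) and Cnn1 (chr9:22099216-22109630) share chromosome 9, Myh11 (chr16:14194535-14291372) and Mylk (chr16:34745210-35002420) chromosome 16, Des (chr1:75360329-75368579) and Lmod1 (chr1:135324807-135368065) chromosome 1, and Smtn (chr11:3517523-3540612) and Myocd (chr11:65176561-65269989) chromosome 11. Actg2 is at chr6:83512905-83536265. Of these 4 pairs on shared chromosomes, only Tagln and Cnn1 ordered the sarcomas alike by FPKM.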

How the data were processed

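The authors trimmed reads with cutadapt 1.9.1, checked them with FastQC 0.10.1, aligned them to GRCm38 with HISAT2 2.0.1 and deposited an unnormalized read count per gene from HTSeq. The authors also deposited FPKM, which equalled the count divided by exonic length and total count to within rounding for all 56691 genes, and another column with the exonic length that was used here only for this check. The labels name TRIzol and a SMARTER kit, whereas the methods name a spin column and TruSeq. Gene positions came from GENCODE M21 by identifier, since only 1472 of 52073 shared genes had the same start and end in the table. Genes without a symbol (2639) held at most 0.171% of a sarcoma's counts.

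ATO and Ctl were compared by the quasi-likelihood F-test of edgeR 4.0.16 (R 4.3.3, TMM factors, genes kept by filterByExpr, Benjamini-Hochberg adjustment over 17188 genes, threshold 0.05), and the common biological coefficient of variation was 62.5%. Alternatives used DESeq2 1.42.0 and limma 3.58.1 on log2(FPKM + 1) or log2(FPKM + 0.1). Ratios of libraries carry exact 95% intervals. Tables were made in Python 3.11.15 (pandas 2.3.3, numpy 2.4.6), intervals with scipy 1.17.1 and plots with matplotlib 3.10.9.

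The 10 genes and the lists were chosen with earlier results of these data known. The genes named were the 10, the gene with the largest mean CPM of each list and those at an unadjusted edgeR p under 0.05, and the 5 genes most like Acta2 and Myh11. In lists other than those of smooth muscle, such genes are named only in part, and a few further names were added after their values were seen, among them isoforms of the same families, Srf, Mrtfa, Mrtfb and Rock1.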

Additional observations from a re-analysis of the deposited data

How the results depend on the processing

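DESeq2 called 716 genes (559 higher, 157 lower), 4.17% of the 17188 tested. Without a filter on low counts, edgeR called 541 (454 higher, 87 lower), 1.75% of the 30859 tested. With the filter it called 0. Of the 10 genes, 1 (Des) was called by DESeq2 and by edgeR without the filter. The other alternatives called 0 genes. The median of the 9 genes without Myocd, also where it was tested, was −0.74 with limma on log2(FPKM + 1), −0.84 with limma on log2(FPKM + 0.1), and −0.97 to 1.69 when single sarcomas were left out. Actg2 turned to −1.05 and −2.39 in these limma fits. With the replicate number as a replicate block, 0 genes were called, 1165 had an unadjusted p under 0.05, that median turned from 0.62 to −0.57, and Actg2 was −2.07. The block changed no call. Sarcomas of the same number did not deviate together over the genes tested (correlation 0.000916). With 2 sarcomas per group this compares a single difference from each group, so it cannot decide whether the number stands for a pairing. With single sarcomas left out, where the lone sarcoma was assumed to vary like the other group, the fold changes spanned −2.82 to 0.84 for Acta2, −8.15 to 1.74 for Actg2, −7.40 to 3.01 for Cnn1, −2.37 to 0.94 for Tagln and −0.26 to 2.76 for Myh11. Smtn, Des, Lmod1 and Mylk kept their direction in all 14 alternatives. By library size alone, the median of all genes was −0.28 (limma −0.18 and −0.27), and Mylk overlapped between the groups. Causes were not tested. Depth limits Myocd in all sarcomas, and Actg2 and Cnn1 in ATO 1.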
